A study of Homo sapiens with 4 samples.

Results

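The annexins and S100A10 were followed here in naive NB4 cells and in an arsenic trioxide (ATO) resistant line derived from them. The members were 9 genes, ANXA1, ANXA2, ANXA3, ANXA4, ANXA5, ANXA6, ANXA7, ANXA11 and S100A10, and were taken as every probe on the array that carried one of these names, 13 of 41000 probes that were not controls. Of these, ANXA2 and ANXA11 had 3 probes each and every other member had 1. In the resistant cells the S100A10 probe was 4.64-fold lower and the ANXA5 probe 4.05-fold lower, and both were called. The 3 ANXA2 probes were lower by 3.78 to 5.21-fold but did not pass the test under the main processing. No member was called higher under that processing. Under some other processing of all flasks the ANXA2 probes were called lower and ANXA4 higher. Under some the calls of S100A10 and ANXA5 were lost, as they were when either resistant flask was left out.

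Annexins are cytosolic proteins that bind acidic phospholipids of membranes when calcium rises, through a repeated core domain, while the amino terminal tail differs between them and binds partners. ANXA2 binds S100A10 (p11), an S100 protein that has lost calcium binding, and the complex at the cell surface binds plasminogen and tissue plasminogen activator and speeds the making of plasmin. In acute promyelocytic leukemia (APL) high levels of this complex on the blasts are a known part of the bleeding disorder with excess fibrinolysis.

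NB4 is a human cell line of APL. The naive line is labelled naive NB4 and the resistant line NB4-VM-AsR1, a clone made in-house that the methods of the study write as NB4-EV-AsR1, and both spellings are taken for 1 clone here, which is an assumption. The medium of both lines was RPMI with FBS. ATO had been withdrawn from the resistant cells for 1 week, and the labels give no treatment for either line when RNA was taken. Each line was measured as 2 independent flasks. Because the resistant line is 1 clone, a difference from the naive line cannot be told apart from a difference between this clone and other NB4 cells. The Cy3-labelled RNA of each flask went on 1 array of the whole human genome, all 4 on 1 slide, the naive flasks at positions 1 and 2 and the resistant flasks at 3 and 4, so that line and position cannot be told apart.

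Levels are log2 processed signals minus the 75th percentile of the array, so that 0 is the level of that percentile, and they compare 1 probe between flasks, not one probe with another. Tested were the 28221 probes that stood well above background on both arrays of a line, among them all 13 member probes. A probe was called if limma gave a Benjamini-Hochberg adjusted p below 0.05, over all probes tested, and the change was 2-fold or more. With 2 flasks against 2 an exact permutation test of a single probe cannot go below p = 0.333, so a call draws on the spread that limma shares across all probes. On the arrays 27922 to 28244 probes were well above background, and the naive flasks differed from each other more than the resistant flasks did, with an SD over all probes tested of 0.71 against 0.37 on the log2 scale.

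The labelled cell type was read from its granule and surface markers. MPO, the peroxidase of azurophil granules, was saturated on all 4 arrays, and CTSG and CD33 were well above background on all of them. Of 7 promyelocyte marker probes 2 were called higher in the resistant cells, beside 2.30% of all probes tested. Called lower were 0, beside 2.97% of all probes tested. The probes called higher were those of the granule proteins ELANE (2.49 on the log2 scale, adjusted p = 0.017 in limma) and AZU1 (1.17, adjusted p = 0.047 in limma). ELANE was well above background on only 1 naive array, with the naive flasks at -5.74 and -6.56, so the size of its change is uncertain. HBB, COL1A1, COL1A2 and the B cell marker MS4A1 were not well above background on any array. The T cell receptor subunit CD3D was well above background in both naive flasks, at 0.70 and 1.16, and on neither resistant array, at least 169-fold lower, while both probes of its partner CD3E were low and well above background on all 4 arrays. Of the T cell list 1 of 3 tested probes was called lower, beside 2.97% of all probes tested. Of the B cell (2 tested), erythroid (1 tested) and stromal and endothelial lists (1 tested) 0 probes were called. The part of these marker differences in the annexin values was not tested.

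Sequences are shown for the probes and promoters that the main values turn on. The first is an ANXA2 probe, shown because the file header places it at chr9:33625181-33625240 (hg19) and not on chromosome 15, where ANXA2 lies. RefSeq lists a transcribed pseudogene of ANXA2, ANXA2P2, on chromosome 9 and another, ANXA2P3, on chromosome 10, where the header places a second ANXA2 probe (chr10:66586523-66586582). The third ANXA2 probe lies on chromosome 15 (chr15:60639746-60639805), within the gene. How far the pseudogenes add to the signal of the first and second of these probes was not tested. The 3 ANXA2 probes share at most 7 consecutive bases with each other, so they read separate stretches of sequence.
ANXA2 probe A_23_P146644: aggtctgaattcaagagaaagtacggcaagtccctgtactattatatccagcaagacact

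The next sequences are the 250 bases before the RefSeq start (GRCh38.p14, minus strand, read 5′ to 3′) of the called members and of ANXA2, with motif matches in capitals. They lie at chr1:151993860-151994109 for S100A10, chr4:121696981-121697230 for ANXA5 and chr15:60397987-60398236 for ANXA2.
S100A10 promoter: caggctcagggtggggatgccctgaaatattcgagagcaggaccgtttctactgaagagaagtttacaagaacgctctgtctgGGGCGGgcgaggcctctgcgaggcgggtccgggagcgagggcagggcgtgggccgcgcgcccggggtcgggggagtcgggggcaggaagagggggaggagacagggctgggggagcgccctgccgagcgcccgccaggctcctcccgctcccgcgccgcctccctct
ANXA5 promoter: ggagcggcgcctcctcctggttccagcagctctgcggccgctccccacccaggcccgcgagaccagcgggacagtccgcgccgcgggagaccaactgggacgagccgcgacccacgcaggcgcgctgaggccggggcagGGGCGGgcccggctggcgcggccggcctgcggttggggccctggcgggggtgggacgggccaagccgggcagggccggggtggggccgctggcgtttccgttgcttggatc
ANXA2 promoter: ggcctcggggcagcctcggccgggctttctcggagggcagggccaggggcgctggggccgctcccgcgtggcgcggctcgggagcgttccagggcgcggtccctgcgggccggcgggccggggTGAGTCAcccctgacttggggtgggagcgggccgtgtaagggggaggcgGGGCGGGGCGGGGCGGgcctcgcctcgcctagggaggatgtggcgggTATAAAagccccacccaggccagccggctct

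The motifs searched, on both strands, were the GC box GGGCGG, the TATA box TATAAA, the CCAAT box CCAAT and the AP-1 motif TGANTCA. The S100A10 and ANXA5 windows each hold 1 GC box and none of the others, and the ANXA2 window holds 3 GC boxes in 1 run where neighbouring copies share their edges, 1 TATA box and 1 AP-1 motif. All 3 windows are rich in G and C, 71.2% in S100A10, 78.8% in ANXA5 and 78.0% in ANXA2, against a median of 58.0% over 35116 promoter windows of that length. Of these windows 42.6% hold a GC box, 10.7% a TATA box, 32.0% a CCAAT box and 6.57% the AP-1 motif. The 9 members have 13 windows, of which 8, from 7 genes, hold a GC box, and the windows of ANXA1 (38.4% G and C) and ANXA3 hold none. ANXA4 has 2 windows with 5 and 3 GC boxes. A match is a description of the letters only.

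The plot of the member probes by flask shows the levels on which all comparisons rest.

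**Figure D1:**
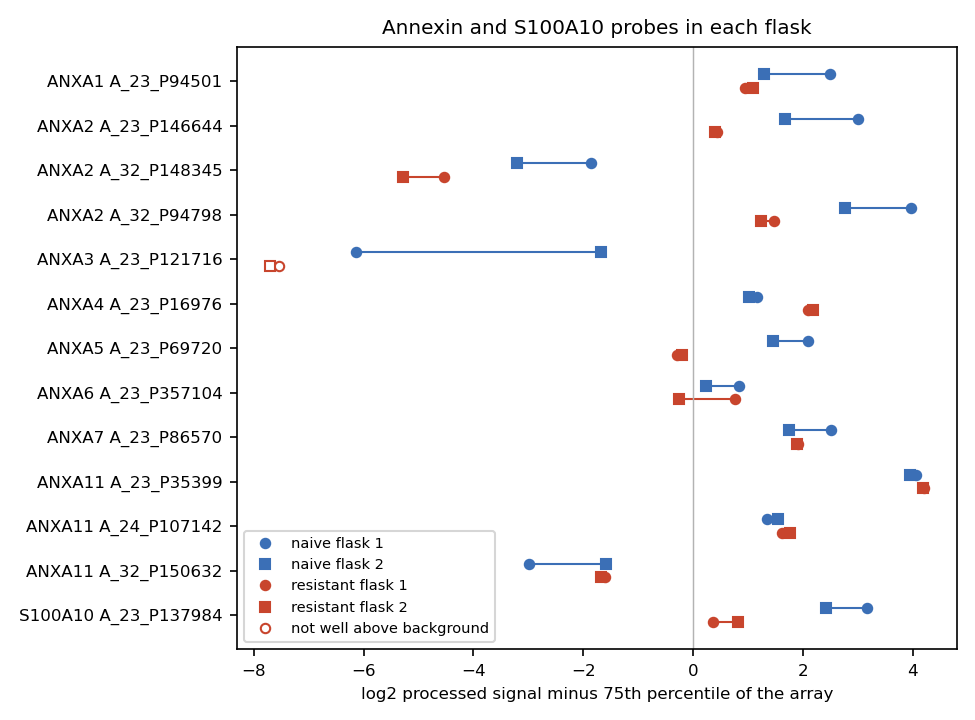
Level of each of the 13 annexin and S100A10 probes in each flask, as log2 processed signal minus the 75th percentile of the array (horizontal axis), with the flasks of a line joined by a line; open symbols are not well above background. The resistant flasks lie below both naive flasks for the S100A10, ANXA1, ANXA2, ANXA3 and ANXA5 probes. They lie above both for ANXA4 and, by less, for the first and second ANXA11 probes listed. Naive flask 1 minus naive flask 2 is -4.45 for ANXA3.

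S100A10, the partner that carries the carboxyl terminal lysine to which plasminogen binds, was at 3.17 and 2.42 in the naive flasks and at 0.35 and 0.81 in the resistant flasks. The lines did not overlap, and the gap between them was wider than the spread within either line. S100A10 fell by 2.21 on the log2 scale in the resistant cells (SE 0.35, 95% confidence interval -3.09 to -1.34, limma adjusted p = 0.029), and 2.19% of all probes tested had a change as low or lower. The probe lies at chr1:151955420-151955479 (hg19). The call was lost without resistant flask 1 (adjusted p = 0.157) and without resistant flask 2 (adjusted p = 0.076), and it was kept without naive flask 1 (-1.84) and without naive flask 2 (-2.59). In bulk RNA a lower level per cell and fewer cells with the transcript cannot be told apart.

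ANXA2, the phospholipid-binding subunit of the complex and a co-receptor for plasminogen and its activator, was read by 3 probes. The probe within the gene on chromosome 15 was at 3.96 and 2.77 in the naive flasks and at 1.47 and 1.23 in the resistant flasks. It differed by -2.01 (SE 0.43, 95% confidence interval -3.11 to -0.92) with an adjusted p of 0.073 in limma, and was not called.

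The probe printed above, placed on chromosome 9, was at 2.99 and 1.68 in the naive flasks and at 0.44 and 0.39 in the resistant flasks, a difference of -1.92 (SE 0.46, adjusted p = 0.097 in limma). The probe placed on chromosome 10 was at -1.85 and -3.21 against -4.54 and -5.29, a difference of -2.38 (SE 0.52, adjusted p = 0.076 in limma). The size of this last difference depended on the background correction, at -0.71 under normexp and -1.32 with its bright local backgrounds reset, and it was -1.71 without naive flask 1 and -3.06 without naive flask 2. In all 3 ANXA2 probes both resistant flasks lay below both naive flasks, and naive flask 1 lay above naive flask 2 by 1.20 to 1.35, more than the SD of that difference over all probes. With all flasks and scale normalization all 3 were called lower (adjusted p from 0.014 to 0.036 in limma). The probe within the gene was also called with bright local backgrounds reset, with the flask number as a block and with an intensity trend. The chromosome 9 probe was also called with that reset, and the chromosome 10 probe with that block. Under normexp without the reset, quantile normalization or a shift to the median none was called. Under the main processing none of the 3 was called with all flasks in the fit. All 3 were called in the same fit without naive flask 2, and also without naive flask 1.

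ANXA5, which binds exposed phosphatidylserine on dying cells and shields it from clotting factors, was at 2.08 and 1.45 in the naive flasks and at -0.30 and -0.21 in the resistant flasks. The lines were apart by more than the spread within either, and the resistant flasks lay within 0.09 of each other. ANXA5 fell by 2.02 on the log2 scale (SE 0.29, 95% confidence interval -2.76 to -1.28, limma adjusted p = 0.023), and 2.37% of probes tested had a change as low or lower. The probe lies at chr4:122589479-122589538 (hg19). Without resistant flask 1 the adjusted p was 0.143 and without resistant flask 2 it was 0.126, so that the call was lost in both. The calls of S100A10 and ANXA5 were also lost with normexp as the background correction (adjusted p = 0.654 for both) and with no filter on dim probes (0.068 and 0.055).

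Of the 13 member probes 2 were called, both lower, beside 5.27% of all probes tested called in either direction and 2.97% called lower. Called higher were 0 member probes, beside 2.30% of all probes. An unadjusted p below 0.05 in limma was found for 7 member probes, beside 5383 of the 28221 probes tested. For 10 member probes the lines did not overlap, beside 53.0% of all probes, and for 7 of these the resistant flasks were the lower ones, beside 28.2% of all probes. The median difference was -0.88 over the member probes and -0.02 over all probes tested. The median difference of the member probes was -0.28 without naive flask 1 and -1.48 without naive flask 2. It was -0.80 without resistant flask 1 and -0.95 without resistant flask 2. The count of called member probes also moved with a flask left out, as did the count over all probes. The plot of changes with their intervals shows which members stood apart from 0.

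**Figure D2:**
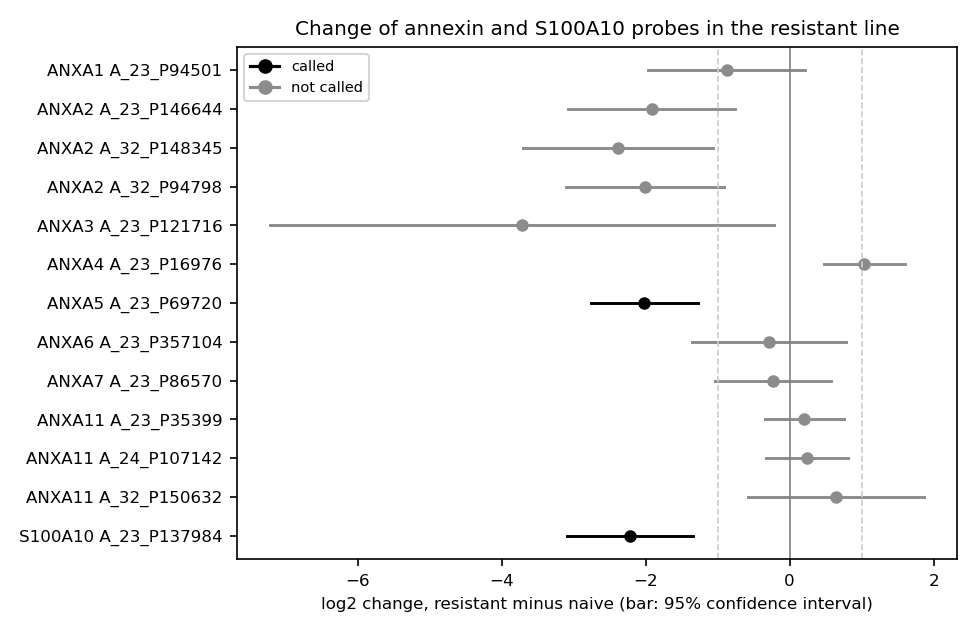
Difference of each member probe, resistant minus naive, on the log2 scale (horizontal axis), with its 95% confidence interval from limma; black points were called and dashed lines mark a 2-fold change. S100A10 at -2.21 and ANXA5 at -2.02 were called. The intervals of the 3 ANXA2 probes also lie below 0 and that of ANXA4 (0.48 to 1.60) lies above 0, without a call. The interval of ANXA3 lies below 0 too, but its point rests on resistant arrays not well above background.

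ANXA4, an annexin of secretory and epithelial cell membranes, was at 1.17 and 1.01 in the naive flasks and at 2.09 and 2.17 in the resistant flasks. The flasks of each line lay close together and the lines did not overlap. The difference was 1.04 (SE 0.22, 95% confidence interval 0.48 to 1.60), with an adjusted p of 0.072 in limma, and was not called, though 94.4% of probes tested had a change as low or lower. It was called higher with bright local backgrounds reset in normexp (1.09, adjusted p = 0.027), with an intensity trend (1.04, adjusted p = 0.037) and without naive flask 1 (1.12, adjusted p = 0.015). The probe lies at chr2:70052749-70052808 (hg19).

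ANXA1, which is anti-inflammatory when released from myeloid cells and acts on formyl peptide receptors, was at 2.49 and 1.29 in the naive flasks and at 0.94 and 1.08 in the resistant flasks. The resistant flasks were lower than both naive flasks, but the difference of -0.88 (SE 0.43, 95% confidence interval -1.96 to 0.21, adjusted p = 0.351 in limma) was smaller than the gap of 1.20 between the naive flasks. It was -0.28 without naive flask 1, and it was called without naive flask 2 (-1.48, adjusted p = 0.005 in limma). The probe lies at chr9:75785002-75785061 (hg19).

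ANXA3, an annexin abundant in neutrophil granules, was at -6.13 and -1.68 in the naive flasks and at -7.54 and -7.71 in the resistant flasks. Neither resistant array measured it above background, so only a bound can be given. The probe was at least 5.92-fold lower there, with the mean of the naive flasks set against the mean over the resistant arrays of the dimmest signal still well above background. The naive flasks differed by -4.45 (flask 1 minus flask 2), the widest gap of any member, and naive flask 1 lay near background, so the bound rests on naive flask 2. It was not called (adjusted p = 0.240 in limma), but it was under scale normalization (adjusted p = 0.048) and without naive flask 1 or naive flask 2. The probe lies at chr4:79525495-79525553 (hg19).

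ANXA6, a larger annexin with a doubled core that takes part in membrane traffic, was at 0.83 and 0.24 in the naive flasks and at 0.76 and -0.26 in the resistant flasks. The lines overlapped, and the resistant flasks were further apart (1.02) than the means of the lines (-0.28, SE 0.42, 95% confidence interval -1.35 to 0.78, adjusted p = 0.763 in limma). ANXA7 (synexin), which fuses membranes in exocytosis, was at 2.51 and 1.75 against 1.91 and 1.89, a difference of -0.23 (SE 0.32, 95% confidence interval -1.03 to 0.57, adjusted p = 0.743 in limma). Its resistant flasks lay between the naive flasks.

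ANXA11, which links RNA granules to lysosomes and binds PDCD6, was read by 3 probes. The first was at 4.05 and 3.94 in the naive flasks and at 4.21 and 4.19 in the resistant flasks, a difference of 0.20 (95% confidence interval -0.35 to 0.75). The second was at 1.35 and 1.54 against 1.61 and 1.76, a difference of 0.24 (-0.33 to 0.82), and the third at -2.99 and -1.59 against -1.61 and -1.67, a difference of 0.65 (-0.58 to 1.87). The first and second did not overlap between the lines, while naive flask 2 of the third lay above both resistant flasks. None of the 3 was called, with adjusted p from 0.525 to 0.661 in limma, though the third was without naive flask 2 (1.35, adjusted p = 0.006), and the intervals of the first and second leave out a change of 2-fold in either direction.

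The gap between the flasks of 1 line was set beside the gap between the lines for each member. Naive flask 1 minus naive flask 2 was above 0 for 10 of 13 member probes, with a median of 0.64 against -0.05 over all probes. It was above 1 for 4 member probes, those of ANXA1 and ANXA2, beside 4.56% of all probes, and of a size above 1 for 6, with ANXA3 and the third ANXA11 probe on the other side, beside 13.2% of all probes. Resistant flask 1 minus resistant flask 2 was above 0 for 8 of 13, with a median of 0.02, and above 1 for ANXA6 alone.

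**Figure D3:**
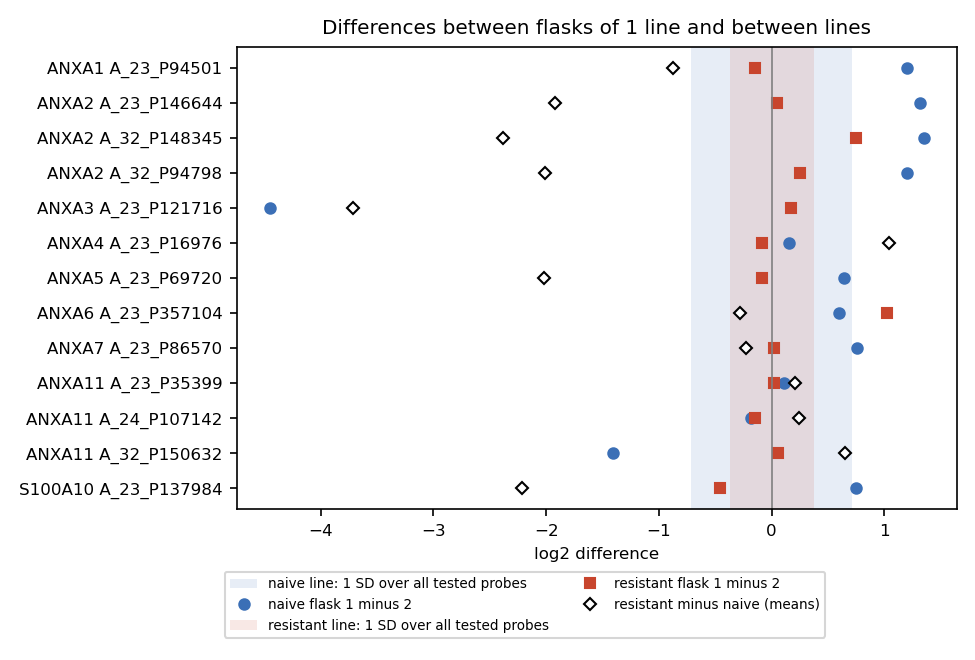
Difference between the naive flasks (blue), between the resistant flasks (red) and between the means of the lines (open diamonds) for each member probe, on the log2 scale (horizontal axis); bands mark 1 SD of the flask differences over all probes tested, 0.71 in the naive and 0.37 in the resistant line. S100A10 and ANXA5 have differences between lines of -2.21 and -2.02 and naive flask differences of 0.75 and 0.64, while ANXA3 and ANXA1, among others, differ more between naive flasks than between lines.

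The genes around the annexins were read from a list of 25 other annexins, calcium-binding partners, plasminogen genes and annexin A1 receptors, of which 24 were on the array with 36 probes, 28 of them tested. Of these 1 was called higher and 1 lower, beside 2.30% and 2.97% of all probes tested. Their median difference was -0.35, beside -0.02 over all probes tested. The count of called related probes moved with a flask left out, as did the count over all probes. The probe called lower was named ANXA8L2, an older symbol of ANXA8L1, a near-identical copy of ANXA8 on chromosome 10 (chr10:47158006-47158065, hg19). High levels of ANXA8 are known from APL. It was at 5.21 and 4.82 in the naive flasks and at 2.54 and 2.77 in the resistant flasks, and it fell by 2.36 on the log2 scale (SE 0.26, adjusted p = 0.008 in limma). The copies may share the probe, so this value cannot be given to one of them.

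ANXA9, an annexin whose core has lost calcium binding, was at -5.60 and -5.61 in the naive flasks and at -4.21 and -4.05 in the resistant flasks. It rose by 1.47 on the log2 scale (SE 0.22, adjusted p = 0.025 in limma), at levels far below the 75th percentile. The ANXA9 call was lost under normexp with or without bright local backgrounds reset, and with no filter on dim probes. It was also lost by the t-test of the study's methods and without either resistant flask. The ANXA8L2 call was lost under normexp without the reset, by that t-test and without either resistant flask. The pseudogene probes were not called, ANXA2P1 at -2.21 (adjusted p = 0.091) and ANXA2P3 at -1.90 (adjusted p = 0.380), and ANXA10 and ANXA13 were not well above background on any array.

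Of 12 tested probes of S100 proteins, sorcin, PDCD6 and AHNAK, the known binding partners, 0 were called. An unadjusted p below 0.05 in limma was found for 2 of them, beside 5383 of the 28221 probes tested. In the resistant cells 9 of the 12 were lower and 3 higher. The widest differences on either side were -1.83 in an AHNAK probe (adjusted p = 0.055 in limma) and 1.41 in S100A4 (adjusted p = 0.268 in limma). S100A11, the partner of ANXA1, differed by -0.19 (95% confidence interval -0.75 to 0.36) and -0.27 (-0.82 to 0.28) on its 2 probes, with adjusted p of 0.688 and 0.555 in limma. The interval of neither reaches a 2-fold change.

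Of 10 tested probes of plasminogen activation 0 were called. An unadjusted p below 0.05 in limma was found for 5 of them, beside 5383 of the 28221 probes tested. PLAUR, the receptor of urokinase, was at 0.23 and 0.34 in the naive flasks and at -0.84 and -0.90 in the resistant flasks. The lines did not overlap, and the difference of -1.16 had an adjusted p of 0.051 in limma, just short of the threshold.

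PLAU, urokinase itself, differed by -0.09 (95% confidence interval -0.74 to 0.55, adjusted p = 0.877 in limma). A probe of PLG, plasminogen, differed by -0.56 (adjusted p = 0.367), and a second, not well above background on the resistant arrays, was at least 1.43-fold lower (adjusted p = 0.256). PLAT, tissue plasminogen activator, which the annexin A2 complex binds, was not well above background on any array. Both tested receptors of annexin A1, FPR1 and FPR2, were not called, with differences of 0.38 and 0.71, the latter well above background on 1 naive array.

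**Figure D4:**
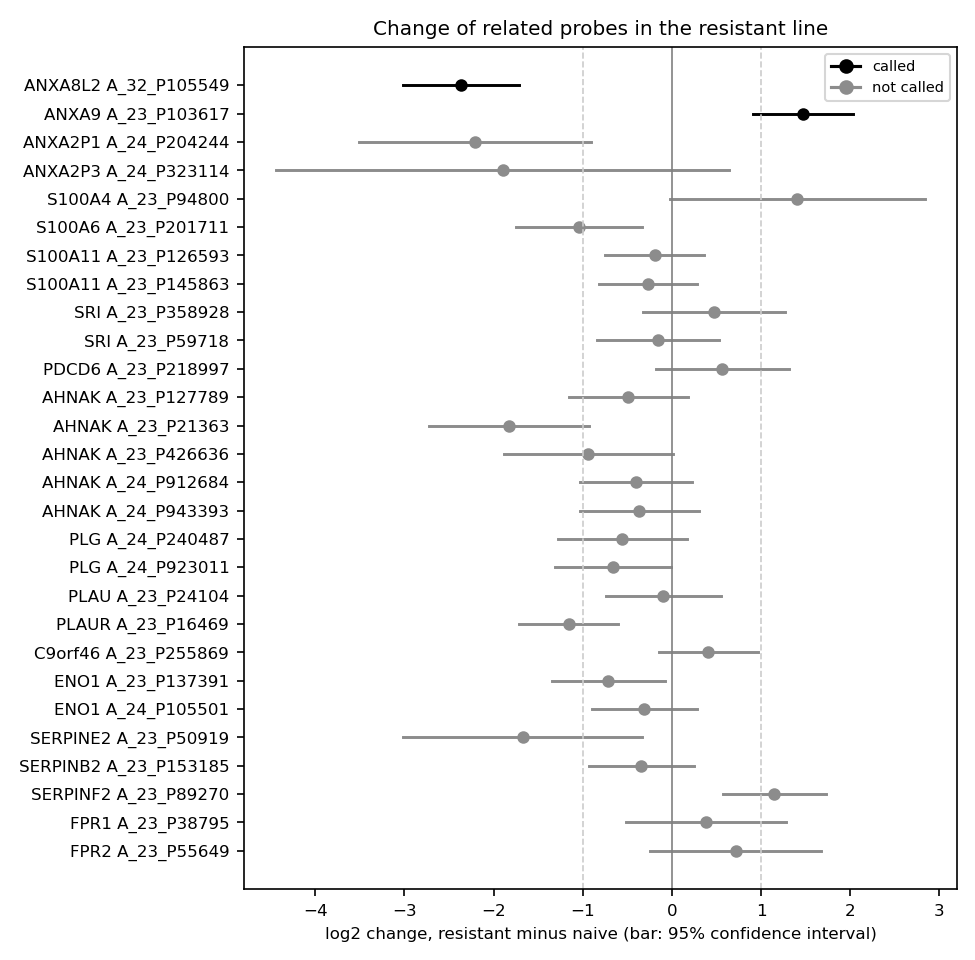
Difference of each tested probe of the related genes, resistant minus naive, on the log2 scale (horizontal axis), with its 95% confidence interval from limma; black points were called and dashed lines mark a 2-fold change. ANXA8L2 at -2.36 and ANXA9 at 1.47 were called, and PLAUR at -1.16 was not. The points of SERPINF2 and of the second PLG probe listed rest on 1 line not well above background.

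The probes whose 4 levels, each centred on its mean, lay nearest to those of a member were found among 25962 probes well above background on all arrays, as a Euclidean distance in log2 units. For the ANXA2 probe on chromosome 15 these were IFT81 (distance 0.26), HS3ST3A1 (0.30) and FGFBP3 (0.30), and 23 probes lay within 0.5. For S100A10 they were TP53I11 (0.094), NCR3 (0.156) and PHLDA1 (0.183), and 32 probes lay within 0.5. These rest on 4 arrays and describe a shared pattern of levels only.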

How the data were processed

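Of 2 flasks per line, the authors scanned 4 arrays and extracted them with Agilent Feature Extraction 10.5.1.1. The deposited processed signal is a linear intensity after background subtraction, and intensity columns of mean signal and local background were deposited with it. A deposited log2 table had been shifted by the authors in GeneSpring GX to the 75th percentile of each array.

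Here log2 of the processed signal was taken in R 4.3.3, control and outlier spots were left out, spots of a probe were averaged and the 75th percentile was subtracted. The values correlated with the deposited table at an r of at least 0.9998 on each array. The contrast of the lines was fitted by limma 3.58.1 (lmFit, eBayes) over 28221 probes, with Benjamini-Hochberg adjustment. Arrays have no read depth, and their number limits the precision. The fit was tested on simulated data.

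The members and gene lists were chosen with earlier results of these data known. The text names every member, the called probes of related genes, PLAU, PLAUR, PLAT, PLG, ANXA8 and S100A11 whatever their values, and the 3 named genes nearest to ANXA2 and to S100A10. A further gene of this rule is not reported here. Other pseudogenes, annexins, binding partners, receptors and markers were named after their values were seen. Of 13 member probes 12 were matched to RefSeq accessions, all with the same symbol, and probe positions are those of the header's build, hg19. Promoter windows are RefSeq's, on GRCh38.p14. Alternatives tried were normexp background correction (offset 50), also with local backgrounds over 100 reset to the array median, normalization by quantiles, by scale or to the median, stricter or no filters on dim probes, no saturated probes, a trend with intensity in limma, the deposited table, the methods' t-test, no minimum fold, a block for the replicate number, flasks left out 1 at a time, and the average of a gene's probes. All 4 arrays lay on 1 slide, which could not be a block.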

Additional observations from a re-analysis of the deposited data

How the results depend on the processing

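Of 220 values of member probes under 17 alternatives, 183 kept their direction and their side of the threshold, 22 passed it newly, 10 lost it and 5 changed sign. The changes of sign were in members that were not called: the first ANXA11 probe was at -0.038 under normexp, and with each flask left out in turn ANXA6 ranged from -0.80 to 0.23 (0.014 without naive flask 1), ANXA7 from -0.61 to 0.15 and the third ANXA11 probe from -0.058 to 1.35. The calls lost were those of ANXA5 and S100A10, 5 times each: under normexp (adjusted p = 0.654 for both), with no filter on dim probes (0.055 and 0.068), by the methods' t-test (0.278 and 0.313) and without either resistant flask. Called member probes numbered 0 under normexp (5 at an unadjusted p below 0.05), 0 with no filter on dim probes (6), 0 by the methods' t-test with adjusted p (3), 5 with bright local backgrounds reset (1 higher, ANXA4, and 4 lower), 6 under scale normalization (all lower) and 4 with an intensity trend (1 higher, ANXA4, and 3 lower). With each flask left out in turn they numbered 0 to 8, all probes called 728 to 4538, and related probes called 0 to 8, where a line left with 1 flask was assumed to vary like the other. The median difference of the member probes was then -1.48 to -0.28. Of all probes 0 were called under normexp (929 at an unadjusted p below 0.05), which moved the median of all probes to 0.13, 760 with only probes above background on all arrays and 0 by the methods' t-test (4138). By that test 1833 probes, 3 of them of members, had an unadjusted p below 0.05 and a 2-fold change. Related probes called numbered 0 under normexp (3), 4 under scale normalization, 1 with no filter, 4 with an intensity trend and 0 by the methods' t-test (6). The average of a gene's probes was -2.11 for ANXA2 and 0.36 for ANXA11. Whether the flask numbers mark a pairing cannot be told from these values. The deviations from the line means correlated at 0.119 over probes between naive flask 1 and resistant flask 1. With 2 flasks per line the crossed value of -0.119 follows from it. With the number as a block 4 member probes, all lower, and 4 related probes were called. The members added were the ANXA2 probes on chromosomes 10 (adjusted p = 0.016 in limma) and 15 (adjusted p = 0.042 in limma). The causes were not tested.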
